A study of Homo sapiens with 10 samples.

Results

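Interferon-stimulated genes and RNA sensors were followed across 10 RNA-seq libraries of HeyA8, a human cell line derived from an ovarian adenocarcinoma. The group is a list of 40 genes given by name, with no measured value in the rule, although the list was drawn up with earlier results of these data known. All 40 were matched to a gene identifier among the 58395 genes of the count files. Counts were high enough to test 35 of the 40, out of 16905 genes tested in all. The cells had been reverse transfected with siRNA duplexes at 10 nM, and total RNA was taken 24 or 48 h later. siNT1, a non-targeting duplex that the labels name siNT1 S2'OM, and siGGGGGC, which the titles call siMxy, were sampled at 24 h and at 48 h. siGGCAGU, called si34a in the titles, was sampled at 48 h, so that the 5 groups hold 2 libraries each. siGGGGGC and siGGCAGU are named after the seed of their guide strand. Per the methods the sense strand of every duplex holds methylated bases at its 5′ end. Such a change is known to weaken the recognition of short RNA by sensors. The labels name it for siNT1 only, and whether the duplexes differed in it was not tested. No group was left without transfection, so every level below is that of transfected cells, and the control libraries had received double-stranded RNA as well. The duplicates were wells of 1 line, and the p-values measure the spread between such wells.

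Cells recognise RNA of viral shape through a small set of sensors. RIG-I (gene RIGI) and MDA5 (IFIH1) bind double-stranded RNA in the cytosol and signal through the mitochondrial adaptor MAVS. TLR3 binds double-stranded RNA in endosomes and does not use MAVS, and PKR (EIF2AK2) shuts down translation. The signal leads to interferons, whose receptors activate a complex holding STAT2 and IRF9 that binds the interferon-stimulated response element in the promoters of effectors such as the IFIT, OAS and MX families. ADAR edits adenosines in double-stranded RNA and is known for keeping the cell's own RNA from being sensed. Several of these genes can also be induced by IRF factors without interferon.

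The response element is shown first because it is the site that the interferon-activated complex binds in promoters of effectors, although binding was not measured here. Its core, GAAA repeated after any 2 bases, was searched on both strands of the RefSeq promoters (250 bases before to 50 after the annotated start, GRCh38.p14). It was found in 21 of the 35 members with a promoter in that table, or 60%, and in 996 of the 27305 genes of the table, or 3.65%. IFIT2, OAS2, OASL, IRF7 and USP18 had no promoter there. The windows below run 5′ to 3′ in the direction of the gene, with 1 core in capitals, and were chosen to set members that rose with siGGCAGU beside HERC5, which fell, and EIF2AK2, which did not pass the test.
IFIT1, chr10:89392487-89392536, plus strand: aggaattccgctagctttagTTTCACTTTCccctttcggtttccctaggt
IFIT3, chr10:89327855-89327904, plus strand: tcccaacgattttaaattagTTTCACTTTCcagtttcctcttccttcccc
ISG15, chr1:1013370-1013419, plus strand: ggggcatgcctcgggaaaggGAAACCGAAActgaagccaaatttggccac
TLR3, chr4:186069132-186069181, plus strand: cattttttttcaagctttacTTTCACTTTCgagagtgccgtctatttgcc
TAP1, chr6:32853809-32853858, minus strand: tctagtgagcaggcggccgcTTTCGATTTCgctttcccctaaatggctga
EIF2AK2, chr2:37156957-37157006, minus strand: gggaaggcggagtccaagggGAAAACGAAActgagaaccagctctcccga
HERC5, chr4:88457025-88457074, plus strand: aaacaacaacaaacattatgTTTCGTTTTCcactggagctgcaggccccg

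The cores of IFIT1, IFIT3, TLR3, TAP1 and HERC5 are read on the strand opposite to the gene and so appear as TTTC repeats, and in IFIT1, IFIT3, ISG15 and TAP1 a second core lies within the same promoter. STAT2, SAMD9L, PARP9, RIGI, SP110, ADAR and IFI35 hold no such core in their 300 bases, which says only that these letters are not in that window. The plot of element positions shows that the cores lay from 164 bases before to 23 bases after the start.

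**Figure D1:**
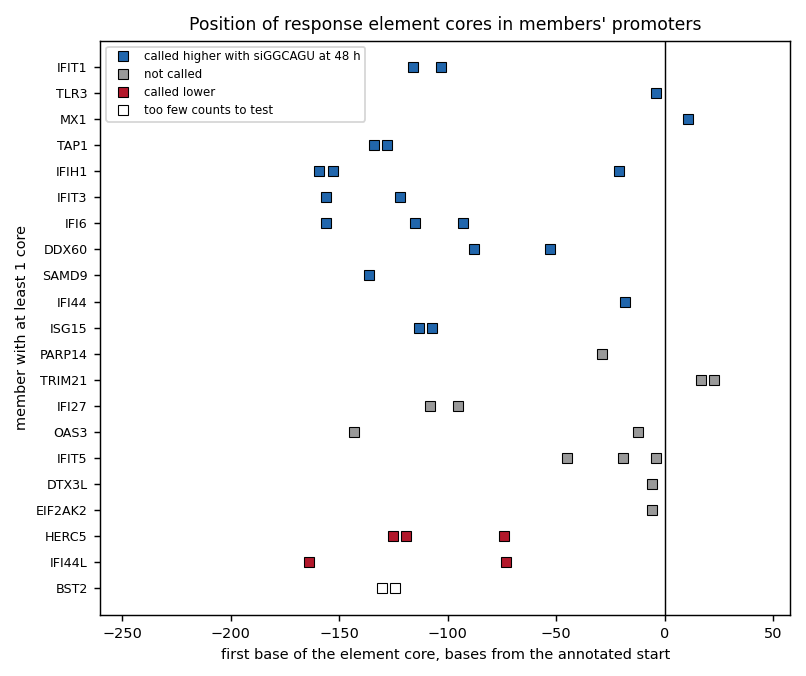
Each square is the first base of 1 response element core, in bases from the annotated start (vertical line at 0), for the 21 members with at least 1 core. Members are ordered from the largest to the smallest log2 fold change with siGGCAGU at 48 h, the colour gives the call in that comparison, and BST2 had too few counts to test. Members called higher, lower and not called all carry cores.

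The other sequences that bear on the members are seed matches, the 6 bases in a 3′ UTR that pair with the seed of a guide strand as with a microRNA. The match of siGGGGGC is GCCCCC, found in the longest annotated 3′ UTR of 8 of the 40 members (20%) and of 30.2% of 19248 protein-coding genes. The match of siGGCAGU is ACTGCC, found in 17 members (42.5%) and in 32.7% of genes. Shown are 30-base windows of GENCODE release 44 transcripts, with the match in capitals, for ADAR, the member that fell furthest with siGGGGGC at 48 h, and for IFI44L and IFIT1, which had a low and a high level with siGGCAGU.
ADAR, chr1:154584591-154584620, minus strand: aggtctggccagGCCCCCcttttttccccc
ADAR, chr1:154582471-154582500, minus strand: gcacatccctgcGCCCCCatgcccctctga
IFI44L, chr1:78645035-78645064, plus strand: cctgtgtgccacACTGCCcctccacaacca
IFI44L, chr1:78645204-78645233, plus strand: aataacttaggaACTGCCtcttctttttct
IFIT1, chr10:89404145-89404174, plus strand: cctcccttgctaACTGCCattggacttttt

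IFIT1 holds 3 copies of ACTGCC in its 3′ UTR and was the member with the largest rise with siGGCAGU, and of the 2 members called lower IFI44L holds 2 copies and HERC5 none. Of the 19 members called higher with siGGCAGU 4 hold the match, and of the 14 that were tested and not called 10 do. With siGGCAGU the median log2 fold change was 0.82 for the 15 tested members with the match and 1.65 for the 20 without it. With siGGGGGC at 48 h it was 0.53 for 8 members with the match and 0.65 for 27 without. Of the 12 members called higher with siGGGGGC at 48 h 2 hold GCCCCC, and of the 20 not called 5 do. Of the 3 called lower ADAR holds it, and EIF2AK2 and IFI35 do not. DTX3L and PARP9, with 4 and 3 copies, were not called. These are descriptions of a short list, in which many members share a promoter element and, in the IFIT and OAS clusters, chromosomal neighbours.

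Total counts per library ranged from 19781445 to 42428986, and RN7SL2 and SNORD3A together held 19.8% to 32.0% of them. Counts are therefore given as normalised counts, each library's counts divided by its effective size (total count times the TMM factor of edgeR) and multiplied by the mean effective size of the 10 libraries. Leukocyte markers, checked because leukocytes are known for strong interferon responses, were near 0: 0 of 7 passed the filter on low counts and their summed level was 2.62 to 7.16 normalised counts with siNT1 and 1.43 to 1.44 with siGGGGGC at 24 h, and 2.86 to 3.10 with siNT1, 9.32 to 11.2 with siGGGGGC and 5.21 to 9.15 with siGGCAGU at 48 h. Of 8 markers of ovarian epithelial cancer, 6 passed, and CDH1 and MUC16 did not. Their summed level was 17832 to 18042 with siNT1, 19936 to 23734 with siGGCAGU and 6654 to 6987 with siGGGGGC at 48 h, and of the 6 tested PAX8, WT1, KRT7, KRT8 and KRT18 were called lower with siGGGGGC at 48 h, EPCAM was not (0.05 on the log2 scale), and WT1 and EPCAM were called lower with siGGCAGU (-1.33 and -1.13). The 3 mesenchymal markers (VIM, CDH2 and FN1) summed to 56759 to 59643 with siNT1, 53899 to 59417 with siGGCAGU and 23458 to 23830 with siGGGGGC at 48 h, and FN1 was called lower with siGGGGGC (-3.72). The part of these shifts in the members' changes was not tested. In bulk RNA, fewer cells with a transcript and less transcript per cell cannot be told apart.

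5 members were too low to measure. RSAD2, CMPK2, BST2 and XAF1, all classical antiviral effectors, had 3, 3, 4 and 3 counts summed over the 10 libraries, with 9, 8, 7 and 8 libraries at 0. OAS1, an oligoadenylate synthetase, had 34 counts in all and at most 15 in a library, with 3 libraries at 0. Its normalised counts were 7.85 and 11.2 with siGGCAGU and at most 4.77 in any other library, so its highest values came with siGGCAGU, but it was not tested. The interferons themselves were at this level too: of the 9 ligand genes in the list of interferon ligands (IFNB1, IFNG, and alpha, epsilon, kappa and lambda genes), none passed the filter and none had more than 2 counts in any library.

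Across the 35 tested members the response at 48 h was broad with siGGCAGU, mixed with siGGGGGC, and at 24 h slight. Calls asked for an adjusted p below 0.05 (edgeR quasi-likelihood F test, Benjamini-Hochberg over 16905 genes) together with a log2 fold change above 1 or below -1. With siGGCAGU at 48 h 19 members were called higher, where 10.7% of all genes tested were, and 2 were called lower, where 9.62% of all genes were. The 19 include OAS2 and MX1, which passed the filter on low counts through the siGGCAGU libraries. With siGGGGGC at 48 h 12 members were called higher and 3 lower, against 10.5% and 11% of all genes. At 24 h siGGGGGC gave 1 call each way, TAP1 higher and IFI44L lower, against 1.55% and 2.17%. Without the demand on size, adjusted p was below 0.05 for 26 members that rose and 3 that fell with siGGCAGU (27.8% and 24.9% of all genes), for 18 and 5 with siGGGGGC at 48 h (27.8% and 27.5%) and for 6 and 3 at 24 h (10.6% and 8.32%). Those 6 were TAP1, OAS3, ISG15, IRF1, TRIM21 and PARP14, and the 3 were IFI44L, ADAR and IFI44. Under 13 alternative analyses the threshold was lost in 7 for PARP14, 7 for ISG15, 6 for IFI44, 5 for OAS3 and 1 for IRF1. For IFI44L it was lost in 4 of 11. The median log2 fold change of the 35 members was 1.35 with siGGCAGU, 0.65 with siGGGGGC at 48 h and 0.25 at 24 h, where the median of all genes lay at 0.02, -0.01 and 0.00. The counts of the 40 members summed to 8322 and 8173 normalised counts with siNT1 at 48 h, to 8438 and 8570 with siGGGGGC and to 15165 and 14482 with siGGCAGU. The heat map of members by library shows the same order.

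**Figure D2:**
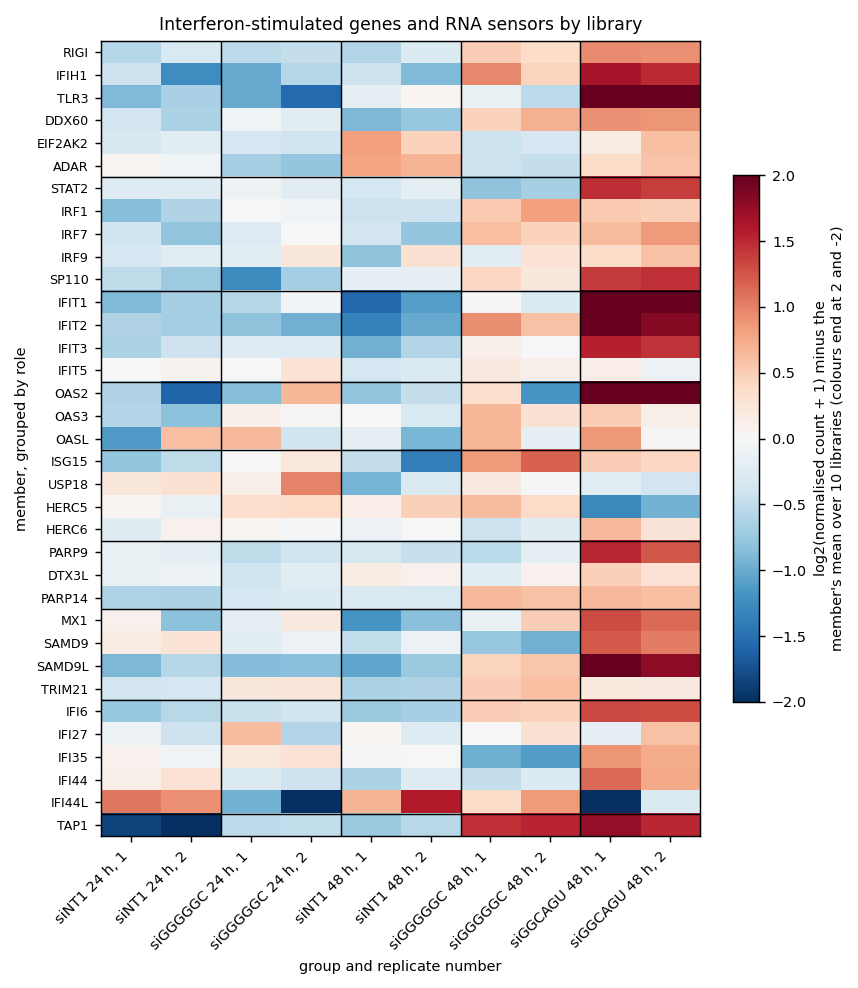
Rows are the 35 tested members grouped by role, columns the 10 libraries, and colour the log2 of the normalised count plus 1 minus the member's mean over all libraries, cut at 2 and -2. Most rows are darkest red in both siGGCAGU libraries, with ADAR and EIF2AK2 at their highest group mean with siNT1 at 48 h and HERC5 and IFI44L lowest or nearly so with siGGCAGU.

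The RNA sensors responded unlike one another. TLR3, the endosomal sensor, had normalised counts of 24.0 and 28.1 with siNT1, 24.6 and 18.6 with siGGGGGC and 158 and 149 with siGGCAGU at 48 h, after 14.3 and 17.0 with siNT1 and 13.0 and 8.58 with siGGGGGC at 24 h. Only the siGGCAGU libraries stood apart, and siNT1 and siGGGGGC overlapped at 48 h. Its log2 fold change was 2.54 with siGGCAGU (SE 0.20, adjusted p = 4.86e-08, edgeR) and -0.28 with siGGGGGC (adjusted p = 0.396). IFIH1, which encodes MDA5, had 28.7 and 20.6 with siNT1, 76.0 and 52.8 with siGGGGGC and 123 and 111 with siGGCAGU at 48 h, and 28.6 and 15.7 with siNT1 and 18.8 and 25.7 with siGGGGGC at 24 h, so that both siRNAs lay above all siNT1 libraries at 48 h and siGGCAGU above siGGGGGC. It rose by 1.40 with siGGGGGC (adjusted p = 4.73e-04) and by 2.26 with siGGCAGU (adjusted p = 2.07e-06, edgeR). RIGI, which encodes RIG-I, had 171 and 215 with siNT1, 363 and 334 with siGGGGGC and 499.6 and 487 with siGGCAGU at 48 h, and 174 and 209 with siNT1 and 180.4 and 186 with siGGGGGC at 24 h. Its rise was 0.85 and 1.34 on the log2 scale (adjusted p = 5.15e-05 and 3.18e-07, edgeR), of which the second was past the size for a call. A newer annotated gene shares 43.2% of the exon length of RIGI on the same strand and is not in the files, so the value of RIGI may hold reads of both. DDX60, a helicase known as a cofactor of RIG-I, had 79.8 and 87.6 with siNT1, 207 and 245 with siGGGGGC and 284 and 277 with siGGCAGU at 48 h, and 115 and 95.6 with siNT1 and 141 and 129 with siGGGGGC at 24 h. It rose by 1.43 with siGGGGGC (adjusted p = 8.41e-07) and by 1.74 with siGGCAGU (adjusted p = 7.46e-08, edgeR), 2 values whose difference of -0.31 did not pass the test (adjusted p = 0.0685).

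ADAR and EIF2AK2, which both bind double-stranded RNA, fell with siGGGGGC at 48 h. ADAR (ENSG00000160710, hg38 chr1:154581695-154628013, minus strand) had 2365 and 2208 with siNT1, 1015 and 987 with siGGGGGC and 1771 and 2034 with siGGCAGU at 48 h, and 1415 and 1298 with siNT1 and 866 and 799 with siGGGGGC at 24 h. Both siGGGGGC libraries lay below both siNT1 libraries at each time. Its log2 fold change was -0.70 at 24 h (SE 0.098, adjusted p = 1.58e-04), -1.19 at 48 h (SE 0.095, adjusted p = 5.93e-08) and -0.26 with siGGCAGU (SE 0.092, adjusted p = 0.0255, edgeR), the last of which was lost in 3 of 13 alternatives. Its 3′ UTR holds the 2 GCCCCC matches printed above and no ACTGCC. EIF2AK2, the kinase PKR, had 1251 and 974 with siNT1, 525 and 564 with siGGGGGC and 789.9 and 1084 with siGGCAGU at 48 h, and 569 and 610.1 with siNT1 and 564 and 539 with siGGGGGC at 24 h. Its fall of -1.03 with siGGGGGC at 48 h (adjusted p = 1.66e-05, edgeR) was set against a control that had itself risen by 0.91 between 24 and 48 h (adjusted p = 0.00103), and the ranges of the siGGGGGC libraries at the 2 times overlapped. ADAR also rose in siNT1, by 0.75 (adjusted p = 2.53e-04, edgeR), and both its siGGGGGC libraries were higher at 48 h than at 24 h. With siGGCAGU EIF2AK2 had a log2 fold change of -0.24 (adjusted p = 0.159, edgeR).

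Among the transcription factors STAT2 divided the siRNAs most clearly. STAT2 (ENSG00000170581, hg38 chr12:56341597-56360203, minus strand), the subunit that brings the transactivation domain to the interferon-activated complex, had 512 and 576 with siNT1, 372 and 412 with siGGGGGC and 1823 and 1694 with siGGCAGU at 48 h, and 545 and 545 with siNT1 and 605 and 556 with siGGGGGC at 24 h. The siGGCAGU libraries were the highest of all and the siGGGGGC libraries at 48 h the lowest, with no overlap. It rose by 1.69 with siGGCAGU, which is 3.22-fold (SE 0.097, adjusted p = 1.47e-09), and fell by 0.47 with siGGGGGC (SE 0.10, adjusted p = 0.00102, edgeR). IRF1, a factor that acts downstream of both interferon classes, had 130.1 and 132 with siNT1, 253 and 311 with siGGGGGC and 254 and 246 with siGGCAGU at 48 h, and 96.7 and 115 with siNT1 and 178 and 170.2 with siGGGGGC at 24 h. It rose with each siRNA, by 0.72 at 24 h, by 1.11 with siGGGGGC at 48 h and by 0.93 with siGGCAGU (adjusted p = 0.00575, 5.51e-06 and 3.36e-05, edgeR). An antisense RNA covers 22.9% of its exon length, and the strand setting of the counting is not given in the sources used here. IRF7, the factor known to amplify interferon alpha genes, had 55.0 and 41.2 with siNT1, 108 and 98.4 with siGGGGGC and 111 and 129 with siGGCAGU at 48 h, and 53.7 and 40.6 with siNT1 and 59.2 and 71.5 with siGGGGGC at 24 h. Its log2 fold changes of 1.12 and 1.35 at 48 h (adjusted p = 2.36e-04 and 3.11e-05, edgeR) were close, and their difference of -0.23 had a 95% interval of -0.63 to 0.17. SP110, a nuclear body protein, had 96.8 and 96.2 with siNT1, 144 and 127 with siGGGGGC and 286 and 302 with siGGCAGU at 48 h, and 76.4 and 65.5 with siNT1 and 44.8 and 67.2 with siGGGGGC at 24 h, with the highest level again with siGGCAGU. It rose by 1.61 with siGGCAGU (adjusted p = 3.26e-07) and by 0.49 with siGGGGGC (adjusted p = 0.0189, edgeR), the latter past the threshold but lost in 5 of 13 alternatives. IRF9, the DNA-binding subunit, was low, at 9.29 to 26.0 normalised counts in all libraries, and did not pass the test in any comparison. A protein-coding gene on the same strand, also among the genes counted, covers 23.9% of the exon length of IRF9. Reads that fit both may have been left out, so the low count of IRF9 may fall short of its level.

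The IFIT family, proteins that bind foreign 5′ ends of RNA, held the largest rises with siGGCAGU at 48 h. With siGGGGGC at 48 h the largest rise was that of TAP1 (2.15). IFIT1 (ENSG00000185745, hg38 chr10:89392546-89406487, plus strand) had 23.2 and 32.7 with siNT1, 72.7 and 59.0 with siGGGGGC and 494 and 363 with siGGCAGU at 48 h, and 38.2 and 44.5 with siNT1 and 47.6 and 68.6 with siGGGGGC at 24 h. Its level with siGGCAGU was 14.9-fold that with siNT1, a log2 fold change of 3.90 (SE 0.22, adjusted p = 9.91e-10), against 2.30-fold with siGGGGGC (log2 1.20, adjusted p = 0.00103, edgeR). IFIT2 had 32.5 and 41.2 with siNT1, 161 and 126 with siGGGGGC and 354 and 304 with siGGCAGU at 48 h, and 54.9 and 52.4 with siNT1 and 47.6 and 42.9 with siGGGGGC at 24 h. The 3 groups at 48 h did not overlap and were ordered siNT1, siGGGGGC and siGGCAGU. It rose by 1.94 with siGGGGGC and by 3.13 with siGGCAGU (adjusted p = 4.86e-07 and 1.25e-09, edgeR), and an overlapping RNA on the same strand covers 12.1% of its exon length. IFIT3 had 138 and 179 with siNT1, 288 and 269 with siGGGGGC and 787 and 731 with siGGCAGU at 48 h, and 173 and 202 with siNT1 and 225 and 225 with siGGGGGC at 24 h, in the same order at 48 h. It rose by 0.81 and 2.25 (adjusted p = 1.13e-04 and 1.39e-09, edgeR), of which the second was past the size for a call. IFIT5, whose promoter holds 3 cores, was the exception within the family, with log2 fold changes of 0.46 and 0.33 (adjusted p = 0.00358 and 0.0302, edgeR) and 328 to 503 normalised counts over all libraries, and the second value was lost in 7 of 13 alternatives. The 4 genes are neighbours on chromosome 10 and alike in sequence, so reads that fit several of them may have been left out of the counts.

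The OAS family makes oligoadenylates, a second messenger of the antiviral response, on binding double-stranded RNA. OAS2 had 3.10 and 4.01 with siNT1, 7.82 and 2.07 with siGGGGGC and 31.4 and 32.7 with siGGCAGU at 48 h, and 3.58 and 1.31 with siNT1 and 2.89 and 10.0 with siGGGGGC at 24 h, so that it stood above the few counts of the other libraries with siGGCAGU alone. Its log2 fold change there was 3.11 with a wide SE of 0.48 (adjusted p = 5.71e-05), and 0.41 with siGGGGGC (adjusted p = 0.647, edgeR). Raw counts of OAS2 were 24 and 44 with siGGCAGU and at most 7 in any other library. It thus passed the filter on low counts through the siGGCAGU libraries alone, and its call is not separate from that selection. OAS3, the most abundant of the family, had 66.8 to 188 normalised counts and rose by 0.76 at 24 h, 0.65 with siGGGGGC at 48 h and 0.46 with siGGCAGU (adjusted p = 0.0237, 0.00639 and 0.0442, edgeR), which were lost in 5, 3 and 7 of 13 alternatives. OASL stayed at 4.77 to 22.2 normalised counts and did not pass the test in any comparison.

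ISG15, a ubiquitin-like protein attached to other proteins after interferon, was higher with siGGGGGC than with siGGCAGU. It had 125 and 65.9 with siNT1, 316 and 396 with siGGGGGC and 246 and 233 with siGGCAGU at 48 h, and 101 and 122 with siNT1 and 173 and 202 with siGGGGGC at 24 h. It rose by 0.75 at 24 h (adjusted p = 0.0429), 1.93 at 48 h (adjusted p = 1.81e-06) and 1.36 with siGGCAGU (adjusted p = 8.15e-05, edgeR). The direct difference of 0.58 passed the test (adjusted p = 0.0236), but was lost in 3 of 13 alternatives, and the rise at 24 h in 7 of 13. HERC5, the ligase that attaches ISG15, moved the opposite way with siGGCAGU. It had 68.2 and 87.1 with siNT1, 97.2 and 81.8 with siGGGGGC and 24.8 and 32.0 with siGGCAGU at 48 h, and 64.4 and 56.3 with siNT1 and 79.4 and 81.5 with siGGGGGC at 24 h, with the siGGCAGU libraries below all others. It fell by 1.42 on the log2 scale with siGGCAGU (SE 0.22, adjusted p = 6.33e-05, edgeR) and had 0.19 with siGGGGGC (adjusted p = 0.408), although its promoter holds 3 cores. HERC6, its paralogue, rose with siGGCAGU by 0.51 (adjusted p = 0.014, edgeR), which was lost in 4 of 13 alternatives. USP18, which removes ISG15, stood at 15.5 to 61.5 normalised counts and did not pass the test.

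PARP9 and DTX3L start next to each other on opposite strands and their proteins form a ligase complex, and PARP14 is their neighbour on chromosome 3. PARP9 had 129 and 117 with siNT1, 112 and 142 with siGGGGGC and 464 and 386 with siGGCAGU at 48 h, and 148 and 141 with siNT1 and 114 and 123 with siGGGGGC at 24 h. It rose by 1.78 with siGGCAGU (adjusted p = 4.66e-08, edgeR) and was at 0.05 with siGGGGGC (adjusted p = 0.818). DTX3L, its partner, did not follow at this size, with log2 fold changes of 0.26 and -0.18 (adjusted p = 0.0727 and 0.218, edgeR). PARP14 moved alike with both siRNAs, by 0.91 with siGGGGGC and 0.93 with siGGCAGU (adjusted p = 3.13e-07 and 2.24e-07, edgeR), and the direct difference of -0.01 had a 95% interval of -0.19 to 0.16.

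SAMD9 and SAMD9L, adjacent paralogues on chromosome 7 that restrict poxvirus translation, parted with siGGGGGC. SAMD9L had 68.2 and 83.6 with siNT1, 191 and 206 with siGGGGGC and 634 and 487 with siGGCAGU at 48 h, and 75.2 and 94.3 with siNT1 and 76.5 and 78.6 with siGGGGGC at 24 h. SAMD9 had 335 and 433 with siNT1, 276 and 240.2 with siGGGGGC and 1095 and 954 with siGGCAGU at 48 h, and 520.3 and 569.5 with siNT1 and 404 and 433 with siGGGGGC at 24 h. Both were highest with siGGCAGU, but with siGGGGGC at 48 h SAMD9L lay above siNT1 and SAMD9 below it. SAMD9L rose by 1.38 and SAMD9 fell by 0.58 with siGGGGGC (adjusted p = 5.59e-06 and 0.00186, edgeR), whereas siGGCAGU raised them by 2.86 and 1.41 (adjusted p = 1.06e-09 and 1.56e-07, edgeR). MX1, a GTPase that blocks viral particles, was low, with 3.87 and 5.16 with siNT1, 8.94 and 14.5 with siGGGGGC and 26.2 and 23.1 with siGGCAGU at 48 h, and 10.7 and 5.24 with siNT1 and 8.66 and 11.4 with siGGGGGC at 24 h. It rose by 2.37 with siGGCAGU (adjusted p = 2.06e-04, edgeR), and its 1.34 with siGGGGGC (adjusted p = 0.0305) was lost in 6 of 11 alternatives. Raw counts of MX1 were 20 and 31 with siGGCAGU and at most 14 elsewhere, so it too passed the filter on low counts through the siGGCAGU libraries. TRIM21, a cytosolic antibody receptor and ligase, had 336 and 345 with siNT1, 735 and 794 with siGGGGGC and 608 and 594 with siGGCAGU at 48 h, and 402 and 409.8 with siNT1 and 615 and 622 with siGGGGGC at 24 h. It rose by 0.61 at 24 h and by 1.17 at 48 h with siGGGGGC and by 0.82 with siGGCAGU (adjusted p = 5.13e-04, 6.14e-08 and 2.66e-06, edgeR), and its direct difference of 0.35 passed the test (adjusted p = 0.00441).

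The genes named IFI do not all belong to 1 family, and they did not move together. IFI6, a small mitochondrial protein, had 51.9 and 54.4 with siNT1, 123 and 120.1 with siGGGGGC and 218 and 216 with siGGCAGU at 48 h, and 51.3 and 58.9 with siNT1 and 63.5 and 65.8 with siGGGGGC at 24 h. It rose by 1.19 and 2.02 at 48 h (adjusted p = 1.32e-05 and 2.25e-08, edgeR), and an RNA on the same strand covers 23.1% of its exon length. IFI35, which binds NMI, had 325 and 332 with siNT1, 169.9 and 153 with siGGGGGC and 621 and 562 with siGGCAGU at 48 h, and 354 and 319 with siNT1 and 389.8 and 412 with siGGGGGC at 24 h. It fell by 1.02 with siGGGGGC at 48 h and rose by 0.84 with siGGCAGU (adjusted p = 2.75e-06 and 6.48e-06, edgeR), with no overlap between the 3 groups. IFI44 had 125 and 163 with siNT1, 139.7 and 162 with siGGGGGC and 429 and 331 with siGGCAGU at 48 h, and 212 and 238 with siNT1 and 162 and 146 with siGGGGGC at 24 h. It rose by 1.38 with siGGCAGU (adjusted p = 2.34e-06, edgeR) and was at 0.06 with siGGGGGC (adjusted p = 0.799). At 24 h it had -0.55 (adjusted p = 0.0421, edgeR), which was lost in 6 of 13 alternatives. IFI44L, its adjacent paralogue, went the other way with siGGCAGU on few counts, with 15.5 and 29.8 with siNT1, 12.3 and 17.6 with siGGGGGC and 1.31 and 7.44 with siGGCAGU at 48 h, and 20.3 and 18.3 with siNT1 and 4.33 and 1.43 with siGGGGGC at 24 h. Its log2 fold change was -2.15 with siGGCAGU (adjusted p = 0.00278) and -2.70 with siGGGGGC at 24 h (adjusted p = 0.0187, edgeR). The libraries behind these values held 11 against 72 counts, a ratio of 0.22 (exact 95% interval 0.105 to 0.417), and 4 against 31 counts, a ratio of 0.148 (0.0381 to 0.42), intervals that cover counting error only. The call at 24 h was lost when any 1 of the 4 libraries was left out. IFI27 remained at 5.72 to 14.4 normalised counts and did not pass the test in any comparison.

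TAP1, the peptide transporter of antigen presentation, was called in 4 of the 6 comparisons. It had 37.2 and 42.4 with siNT1, 174 and 182 with siGGGGGC and 214 and 181 with siGGCAGU at 48 h, and 16.7 and 14.4 with siNT1 and 43.3 and 44.3 with siGGGGGC at 24 h. It rose by 1.48 at 24 h, by 2.15 with siGGGGGC at 48 h and by 2.29 with siGGCAGU (adjusted p = 0.00214, 5.55e-08 and 2.06e-08, edgeR). The direct difference of -0.14 between the siRNAs at 48 h had a 95% interval of -0.45 to 0.18 (adjusted p = 0.463). An antisense RNA covers 14.2% of its exon length. The plot of values per library sets 12 of the members side by side, and the plot of fold changes gives all 35.

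**Figure D3:**
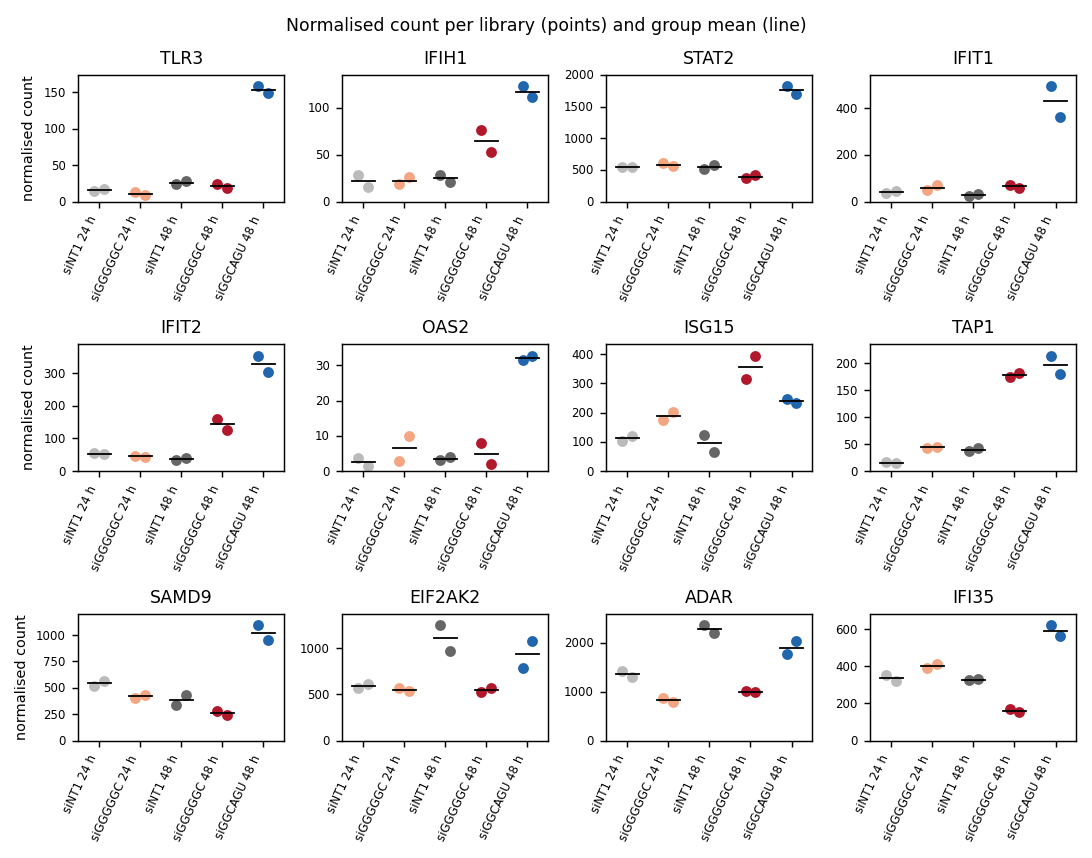
Normalised count (vertical axis, from 0) in each library (point) and group mean (line) for 12 members, with the 5 groups along the horizontal axis. TLR3, STAT2, IFIT1 and OAS2 are far above the other groups with siGGCAGU alone, ISG15 is highest with siGGGGGC at 48 h, and ADAR and EIF2AK2 have their highest group mean with siNT1 at 48 h.

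**Figure D4:**
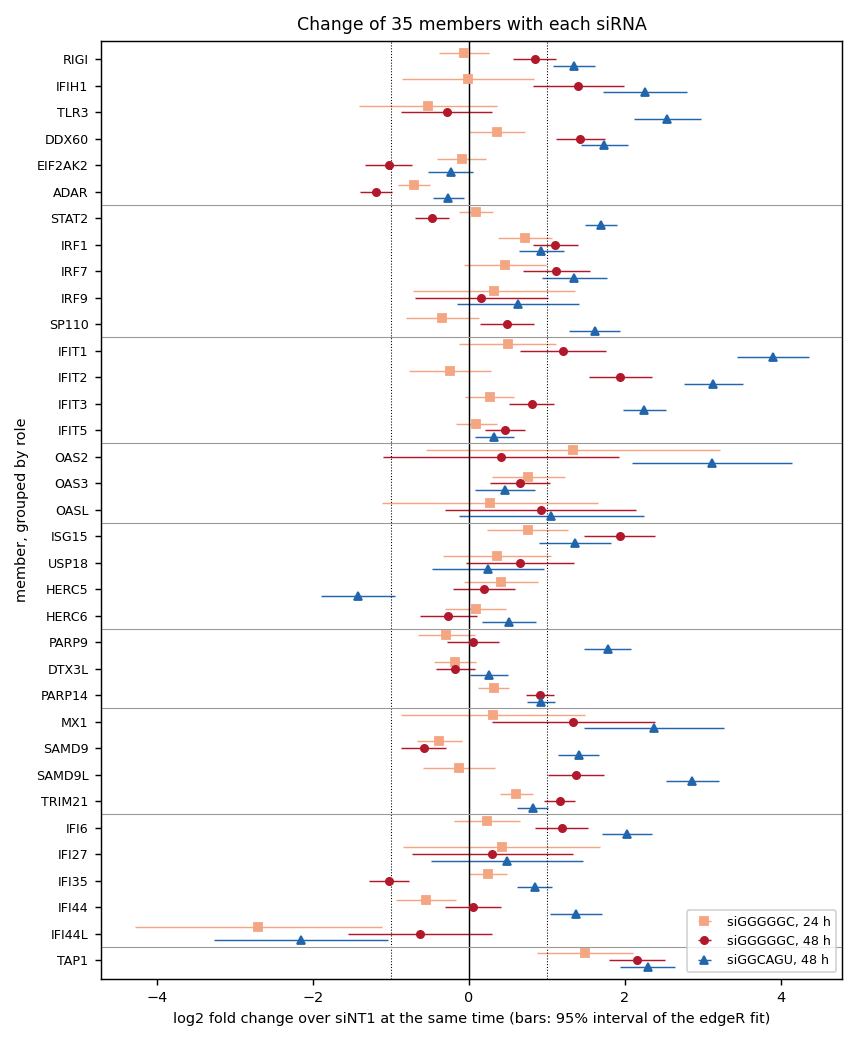
Log2 fold change over siNT1 of the same time (horizontal axis) for the 35 tested members, grouped by role, with siGGGGGC at 24 h as squares, siGGGGGC at 48 h as circles and siGGCAGU at 48 h as triangles. Bars are 95% intervals of the edgeR fit and dotted lines mark 1 and -1, and the triangles reach 3.90 for IFIT1 while the squares mostly cover 0.

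To ask whether the 2 siRNAs differed in these genes, their libraries at 48 h were compared directly. With siGGGGGC 13 members were called lower than with siGGCAGU, where 12.8% of all genes were, and 2 were called higher, where 10.1% were. The median log2 difference of the 35 was -0.78. The largest were -2.82 for TLR3, -2.70 for OAS2, -2.69 for IFIT1, -2.16 for STAT2, -1.99 for SAMD9 and -1.87 for IFI35 (adjusted p between 1.92e-10 and 3.56e-04, edgeR). PARP9, SAMD9L, IFIT3, IFI44, IFIT2, SP110 and MX1 followed, at -1.73, -1.49, -1.44, -1.32, -1.19, -1.12 and -1.04. The 2 called higher were HERC5 (1.61, adjusted p = 2.30e-05) and IFI44L (1.53, adjusted p = 0.0427, edgeR), the members that were low with siGGCAGU. IFI44L was lost in 5 of 12 alternatives and MX1 in 5 of 12. Among the 13 called lower, OAS2 and MX1 had passed the filter on low counts through the siGGCAGU libraries. The direct difference did not pass the test for 11 members, among them TAP1, PARP14, IRF1, IRF7, IFIT5 and DDX60. Of the 16905 genes tested 7722 did not pass it. Both comparisons with siNT1 use the same control libraries, so the values of a member in them are not independent.

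**Figure D5:**
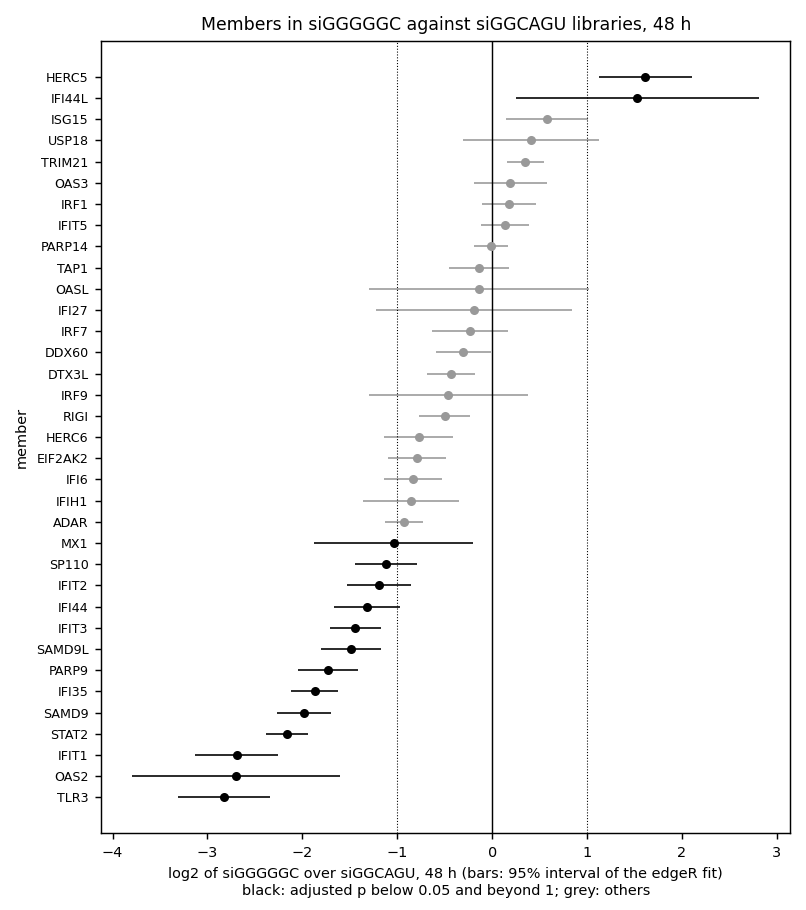
Log2 of siGGGGGC over siGGCAGU at 48 h (horizontal axis) for the 35 tested members in order of that value, with 95% intervals of the edgeR fit. Black points had an adjusted p below 0.05 and a value beyond 1 (dotted lines), and 13 of them lie on the left, with TLR3 at -2.82, and 2 on the right.

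Time was examined with siNT1 and siGGGGGC, which were sampled at both times. Per the methods, wells kept to 48 h had their medium changed at 24 h, so time and the change of medium cannot be told apart. Few members were called in siNT1 between 24 and 48 h. TAP1 (1.35, adjusted p = 0.00448, edgeR) was the 1 member called higher, where 1.06% of genes were, and 0 were called lower, where 0.461% were, with a median of 0.01. At an adjusted p below 0.05 alone, EIF2AK2, ADAR, PARP14 and TAP1 rose and SAMD9 and IFI44 fell. Of the 16905 genes tested 1584 rose and 1217 fell at that threshold, a share near that of the members. An interaction term gave the effect of siGGGGGC at 48 h minus its effect at 24 h, and it was called positive for 5 members (4.83% of genes) and negative for 1 (6.36%). The positive ones were IFIT2 (2.18), SAMD9L (1.498), IFIH1 (1.41), ISG15 (1.18) and DDX60 (1.07), and the negative one was IFI35 (-1.27), whose level with siGGGGGC was 401 ± 15.6 at 24 h and 162 ± 11.8 at 48 h (mean ± SD, n = 2). The adjusted p-values of the 6 ranged from 4.57e-05 to 0.0404 (edgeR), and IFIH1 was lost in 7 and ISG15 in 4 of 17 alternatives. For IFIT2 the siGGGGGC libraries had 47.6 and 42.9 normalised counts at 24 h, below both siNT1 libraries, and 161 and 126 at 48 h. siGGCAGU was sampled at 48 h only, so its course is not known from these libraries.

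The other genes of the pathway, in lists chosen by function, are read against the 21.5% of all genes called either way with siGGGGGC and the 20.3% with siGGCAGU at 48 h. The called shares were 8.33% and 0% for the receptor list, 35.3% and 41.2% for the adaptor list, and 19% and 38.1% for the list of other interferon-stimulated genes, so that the first and the last lay below the share of all genes with siGGGGGC, as did the first with siGGCAGU. Of 14 interferon receptor and JAK-STAT genes 12 were tested. IFNGR2, the second chain of the interferon gamma receptor, was the 1 called higher with siGGGGGC at 48 h (1.20, adjusted p = 2.09e-07, edgeR), and 0 were called with siGGCAGU, where 3 rose at an adjusted p below 0.05 alone. Of 19 adaptors and kinases of sensing 17 were tested. With siGGGGGC at 48 h 3 were called higher, TNFAIP3 (1.38) among them, and 3 lower, RNF125 (-2.15) and MAVS (-1.54) the furthest. MAVS, the adaptor that RIG-I and MDA5 share, had a mean of 407 normalised counts with siGGGGGC and 1187 with siNT1 at 48 h, and had already fallen by 1.06 at 24 h (adjusted p = 3.97e-06, edgeR). With siGGCAGU 5 were called higher, DHX58 (2.78), which encodes the third RIG-I-like receptor, and TNFAIP3 (1.76) the furthest, and 2 lower, RNF125 (-1.14) and CGAS (-1.11). Of 50 other interferon-stimulated genes 42 were tested. With siGGCAGU 14 were called higher and 2 lower, led by APOL1 (3.62) and PSMB9 (3.17) and by TRIM14 (-1.78) and LY6E (-1.15). With siGGGGGC at 48 h 6 were called higher and 2 lower, led by PSMB9 (2.38) and HELZ2 (1.80) and by CD274 (-2.32) and LY6E (-1.75), and at 24 h 0 and 2 (CD274 at -2.05 and GBP1 at -1.42). The median log2 fold change of the 42 was 0.53 with siGGCAGU and 0.03 with siGGGGGC at 48 h. The annotated spans of PSMB9 and TAP1 overlap on opposite strands of chromosome 6, and PSMB9 is an immunoproteasome subunit.

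Set against these calls, the response element was present in the promoter of 11 of 16 members called higher with siGGCAGU, of 7 of 12 that were tested and not called, and of both called lower. For siGGGGGC at 48 h it was present in 8 of 10 called higher and 1 of 3 called lower, where 21 of all 35 members with a promoter held it. The members not called with siGGGGGC were not counted apart, and a link of the element to the calls was not tested. Levels of different members were set side by side per kilobase of merged exon length, which pools the exons of all annotated transcripts. That length is 17984 bases for MX1, 11233 for OAS2 and 867 for ISG15, so the order depends in part on the annotation. With siNT1 at 48 h the highest were ADAR (187), TRIM21 (176), IFI35 (168) and ISG15 (109.9 normalised counts per kilobase), and the lowest tested were MX1 (0.251) and OAS2 (0.316). With siGGCAGU the order began with TRIM21 (311), IFI35 (302), ISG15 (276) and IFI6 (232). The 5 members with the largest fold changes with siGGCAGU (IFIT1, IFIT2, OAS2, SAMD9L and TLR3) had 0.316 to 9.50 normalised counts per kilobase with siNT1. Of the net difference of 6576 normalised counts between siGGCAGU and siNT1 at 48 h, STAT2 made up 18.5%, SAMD9 9.74%, IFIT3 9.14% and PARP14 8.5%. With siGGGGGC the net difference was 256 normalised counts, in which ADAR (-1285) and EIF2AK2 (-568) offset PARP14 (547), TRIM21 (424) and ISG15 (261).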

How the data were processed

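Libraries of total RNA from HeyA8 cells were depleted of ribosomal RNA, and per the labels fragments above 140 nt were sequenced. The authors trimmed the reads, aligned them to hg38 with TopHat or STAR and counted exonic reads per gene of a stated Ensembl release with htseq, and the deposited values are raw counts for 58395 genes. The submitters' processing notes name TopHat, Bowtie2, HTSeq and DESeq2, and the strand setting is not given in the sources used here. The authors' 4 tables of comparisons hold fold changes and p-values and were not used.

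The members, their roles and the pathway lists were chosen with earlier results of these data known. Genes were filtered with filterByExpr of edgeR (version 4.0.16, R 4.3.3) on the 5 groups, scaled by TMM, and tested by the quasi-likelihood F test in a single fit of the 10 libraries with 5 residual degrees of freedom and Benjamini-Hochberg adjustment over 16905 genes. Total counts of 19781445 to 42428986 and a biological coefficient of variation of 0.0837 set the precision. With 2 libraries per group no permutation of labels can reach 0.05. The test was tried on simulated data first. Called members are named with every library's value, others by range, and of each pathway list the 2 furthest called genes each way, except that some genes of these lists are counted but not reported by name here. Alternatives were DESeq2 (version 1.42.0), other scalings and filters, a replicate block, the compared libraries alone and leaving out each library. Same-numbered libraries were not paired: the correlation of their deviations was -0.0894 to 0.0266.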

Additional observations from a re-analysis of the deposited data

Results flagged for a closer look

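For 14 of the 35 tested members the effect of siGGGGGC differed between 48 h and 24 h by the interaction term (edgeR quasi-likelihood F test, adjusted p below 0.05 over 16905 genes). It was higher at 48 h for 10 members and for 2269 of the 16905 genes. It was lower for 4 members and for 2564 genes, so a difference of this kind was common among all genes. On the log2 scale the effect at 48 h exceeded that at 24 h by 2.18 for IFIT2, 1.498 for SAMD9L, 1.41 for IFIH1, 1.18 for ISG15, 1.07 for DDX60, 0.96 for IFI6, 0.91 for RIGI, 0.83 for SP110, 0.59 for PARP14 and 0.56 for TRIM21. It was lower at 48 h by -0.49 for ADAR, -0.56 for STAT2, -0.93 for EIF2AK2 and -1.27 for IFI35. EIF2AK2 and ADAR rose in siNT1 between the times, and for IFI35 both siGGGGGC libraries were lower at 48 h than at 24 h. The change of siGGGGGC over time was not tested on its own. The smallest adjusted p was 4.57e-05, for IFI35. SP110 lost the threshold in 9 of 17 alternatives, IFIH1 in 7, and ADAR and ISG15 in 4 each.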

How the results depend on the processing

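The direction of every member with an adjusted p below 0.05 was kept under each alternative that gave it a value, with 0 reversals (11 to 13 alternatives a result, 17 for the interaction), and over these 105 results and their alternatives the threshold was lost in 124 of 1409 cases, 73 results never losing it. The counts called with siGGCAGU higher (19), with siGGGGGC at 48 h (12 higher, 3 lower) and lower in the direct comparison (13) stayed within 1.5 times. Small counts moved. With siGGGGGC at 24 h the 1 member called lower, IFI44L, became 0 with DESeq2, which gave it no adjusted p, and with a mean count of at least 50, which leaves it out, and 0 to 0 when a library was left out. With siGGCAGU the 2 called lower became 1 at a mean count of at least 50 and 1 to 1 without siNT1 replicate 2 at 48 h. The 2 called higher in the direct comparison became 1 with DESeq2, with total counts alone and at a mean count of at least 50, and 1 to 1 when a siGGCAGU or siGGGGGC library was left out. In siNT1 at 48 h against 24 h the 1 called higher became 2 with total counts alone, 0 without siNT1 replicate 2 at 24 h and 2 without siNT1 replicate 2 at 48 h, where 1 was called lower in place of 0. For the interaction the 5 positive became 3 and the 1 negative became 2 with total counts alone, the negative became 2 without a filter on low counts, and leaving out siGGGGGC replicate 1 at 24 h or replicate 2 at 48 h gave 3 positive, and leaving out siNT1 replicate 2 at 24 h or at 48 h gave 2 negative. The cause was not tested. Total counts alone moved the median of all genes by 0.23 in siNT1 over time, -0.17 with siGGGGGC at 48 h and -0.13 with siGGCAGU. A replicate block, for which the numbers give no pairing (correlations of -0.0894 to 0.0266), changed no count, with 19 and 2, 12 and 3, and 13 and 2 called as before. Depth limits OAS1, RSAD2, CMPK2, BST2, XAF1 and the ligands, and values of IFI44L, MX1, OAS2 and OASL rest on few counts.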

Other observations

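Members of 1 family or of 1 neighbourhood parted in several places, which gives pairs for a closer look. SAMD9 and SAMD9L are adjacent, and with siGGGGGC at 48 h they had log2 fold changes of -0.58 and 1.38. IFI44 and IFI44L are adjacent, and with siGGCAGU they had 1.38 and -2.15, the latter on 11 counts in the siGGCAGU libraries. ISG15 rose with siGGCAGU by 1.36 while HERC5, its ligase, had -1.42 and HERC6 0.51. UBA7 and UBE2L6, the enzymes that activate and carry ISG15 and that belong to the list of other interferon-stimulated genes, had 2.86 and 2.45 with siGGCAGU. These pairs were picked after their values were seen. The differences within pairs were not tested.

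Other genes, also picked after their values were seen, are set side by side for both siRNAs, and the differences between genes were not tested. TAP1 and PSMB9 belong to antigen presentation. At 48 h TAP1 had 2.15 with siGGGGGC and 2.29 with siGGCAGU and PSMB9 2.38 and 3.17, and TLR3 had -0.28 and 2.54 and PARP9 0.05 and 1.78. GBP1, a target of interferon gamma, had 2.40 with siGGCAGU and was 2.92 lower with siGGGGGC than with siGGCAGU.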
